A study of Mus musculus with 24 samples.

Results

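The tight junction genes described here are 9 genes of the mouse intestinal epithelium, chosen by symbol: the claudins Cldn2, Cldn15, Cldn3, Cldn4 and Cldn7, occludin (Ocln), junctional adhesion molecule A (F11r) and the zonula occludens scaffolds Tjp1 (ZO-1) and Tjp3 (ZO-3). They are 9 of the 56691 genes in the deposited table, where 34471 genes were detected by 1 count or more, and all 9 had enough counts to enter every comparison. RNA came from the distal jejunum of 24 mice of the C57BL/6 background, with 3 mice and 3 libraries in each of 8 groups. The groups crossed sex (male or female), genotype (WT, or the germline knockout Ptk6-/-) and treatment (untreated control, or drinking water that held 100 mM succinate over 7 days). Mice reached an age of 9 to 11 weeks, matched between groups, and 1 colony supplied them from more than a single litter. Ptk6 is an intracellular tyrosine kinase, and succinate is a metabolite that tuft cells sense. The knockout is in every cell of the animal, and whole tissue was sequenced.

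Tight junctions seal the space between neighbouring epithelial cells near the lumen. Claudins span the membrane and pair across that space: Cldn2 and Cldn15 form pores for cations, and Cldn2 also for water, whereas Cldn3 and Cldn4 are counted among the sealing claudins, and Cldn7 lies largely on the basolateral membrane and is needed for an intact intestinal epithelium. Ocln limits the passage of larger molecules, F11r is an adhesion molecule of the immunoglobulin family, and Tjp1 and Tjp3 tie these membrane proteins to the actin cytoskeleton. Cldn2 is known as a crypt claudin that rises with interleukin-13 in cultured intestinal epithelium.

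By the gene positions of the deposited table, on the GRCm39 build, the claudin genes Cldn3 (chr5:135015068-135016326) and Cldn4 (chr5:134973973-134975788) are neighbours on opposite strands, with Cldn15 (chr5:136995470-137004712) on the same chromosome. Cldn7 lies at chr11:69855605-69858711, and Cldn2 at chrX:138701577-138712135. Ocln spans chr13:100633015-100689226, F11r chr1:171265103-171292171, Tjp1 chr7:64945913-65177444 and Tjp3 chr10:81109041-81127415. Transcript length, read from the ratio of counts to FPKM (a deposited measure scaled to gene length and depth), was shortest for Cldn3. It was 6.21 times as long for Tjp1, the longest of the 9, 2.64 times for Cldn2, 1.44 times for Cldn4 and 1.55 times for Cldn7.

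The 250 bases before the transcription start are shown for Cldn2, Cldn4 and Tjp1, the genes on which the succinate and genotype comparisons below turn. They are RefSeq sequences on GRCm38.p6, written on the gene's own strand, at chrX:139800558-139800807 for Cldn2 (plus strand), chr5:134946935-134947184 for Cldn4 (minus strand) and chr7:65371245-65371494 for Tjp1 (minus strand). Capitals mark matches, on either strand, to any of 5 motifs. The letters searched for the core promoter element known as the TATA box were TATAAA. Those for the intestinal homeobox factor CDX2 were TTTATG, and those for the enterocyte nuclear receptor HNF4A were CAAAGTCCA. The general zinc finger factor SP1 was searched with GGGCGG, and the interleukin-responsive factor STAT6 by its palindrome with a spacer of 4 bases. No match of one motif overlapped a match of another in the sequences shown.
Cldn2: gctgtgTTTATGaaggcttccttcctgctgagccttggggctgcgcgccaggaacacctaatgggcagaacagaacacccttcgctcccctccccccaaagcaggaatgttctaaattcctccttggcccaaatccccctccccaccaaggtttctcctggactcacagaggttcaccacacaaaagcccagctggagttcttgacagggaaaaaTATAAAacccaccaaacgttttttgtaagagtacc
Cldn4: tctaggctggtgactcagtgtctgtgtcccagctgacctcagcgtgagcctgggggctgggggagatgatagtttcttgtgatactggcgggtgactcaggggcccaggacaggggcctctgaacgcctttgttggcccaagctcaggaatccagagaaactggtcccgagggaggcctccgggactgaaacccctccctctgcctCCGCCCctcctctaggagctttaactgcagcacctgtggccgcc
Tjp1: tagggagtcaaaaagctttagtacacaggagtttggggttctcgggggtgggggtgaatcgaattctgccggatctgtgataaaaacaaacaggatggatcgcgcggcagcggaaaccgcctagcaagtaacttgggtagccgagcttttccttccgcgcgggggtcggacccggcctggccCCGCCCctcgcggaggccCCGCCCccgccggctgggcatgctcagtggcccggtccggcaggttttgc

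The Cldn2 sequence held the TATA box 35 bases and the CDX2 motif 244 bases before the start, and it was the only one of the 12 promoter entries of the 9 genes with either. Of 32851 mouse promoters of this length, 12.4% held the TATA box and 10.8% the CDX2 motif. The SP1 motif was found in 8 of the 12 entries, against 32.7% of all promoters. Cldn4 had 1 such match and Tjp1 had 2. The HNF4A motif was in none of the 12 entries (0.384% of all promoters), and the STAT6 motif was in 1 entry of Ocln (5.85%). The sequences of Cldn4 and Tjp1 were 62% and 63.2% G and C, that of Cldn2 52%, and the median over all promoters was 52.4%. A match describes letters only.

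The libraries held 8080321 to 52824743 counts. Ptk6 itself had 7 to 61 counts in the 12 Ptk6-/- libraries and 284 to 2405 in the 12 WT libraries. Every list of marker genes for villus enterocytes, crypt and cycling cells, epithelium in general, tuft, goblet and Paneth cells and for proximal and distal intestine was detected, apart from the Paneth gene Ang5. Replicate 1 of the male WT controls gave 51.2% of its counts to a gene for 18S ribosomal RNA. Replicate 1 of the succinate-treated male Ptk6-/- mice was the library with 8080321 counts, 29.7% of them from that gene. Replicate 2 of the succinate-treated female WT mice held 17123 CPM (counts scaled to library size) of heart muscle markers summed, against 14.5 to 214 CPM in the other libraries. Libraries also differed in how counts depended on gene length. The length slope of a library, fitted as the deviation of its log2 CPM from the mean of all libraries against log2 length of the genes, lay between −0.193 and 0.211.

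The 9 genes covered a wide range of message levels. On the FPKM scale, which allows levels of different genes to be compared, Cldn7 was first in 7 of the 8 groups by the group mean, with Cldn3 second, and Cldn15 in place 3 in 7 groups. In female WT controls the means were 566 for Cldn7, 326 for Cldn3, 151 for Cldn15, 77.8 for Cldn4, 60.3 for Tjp3, 59.9 for F11r, 15.7 for Cldn2, 13.7 for Ocln and 2.85 for Tjp1. The first 4 stood in that order in each of the 3 mice. Tjp3 and F11r, and likewise Cldn2 and Ocln, overlapped between mice there. Tjp1 had the lowest mean FPKM in all 8 groups, at 2.85 to 9.98, although its protein is a central scaffold. The order at the top departed from this in 2 groups. In female Ptk6-/- controls, Cldn3 had a higher mean (330) than Cldn7 (282), but was above it in only 1 of the 3 mice. In female WT mice given succinate, Cldn4 (129) stood in place 3, ahead of Cldn15 (125), again in 1 of the 3 mice.

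**Figure D1:**
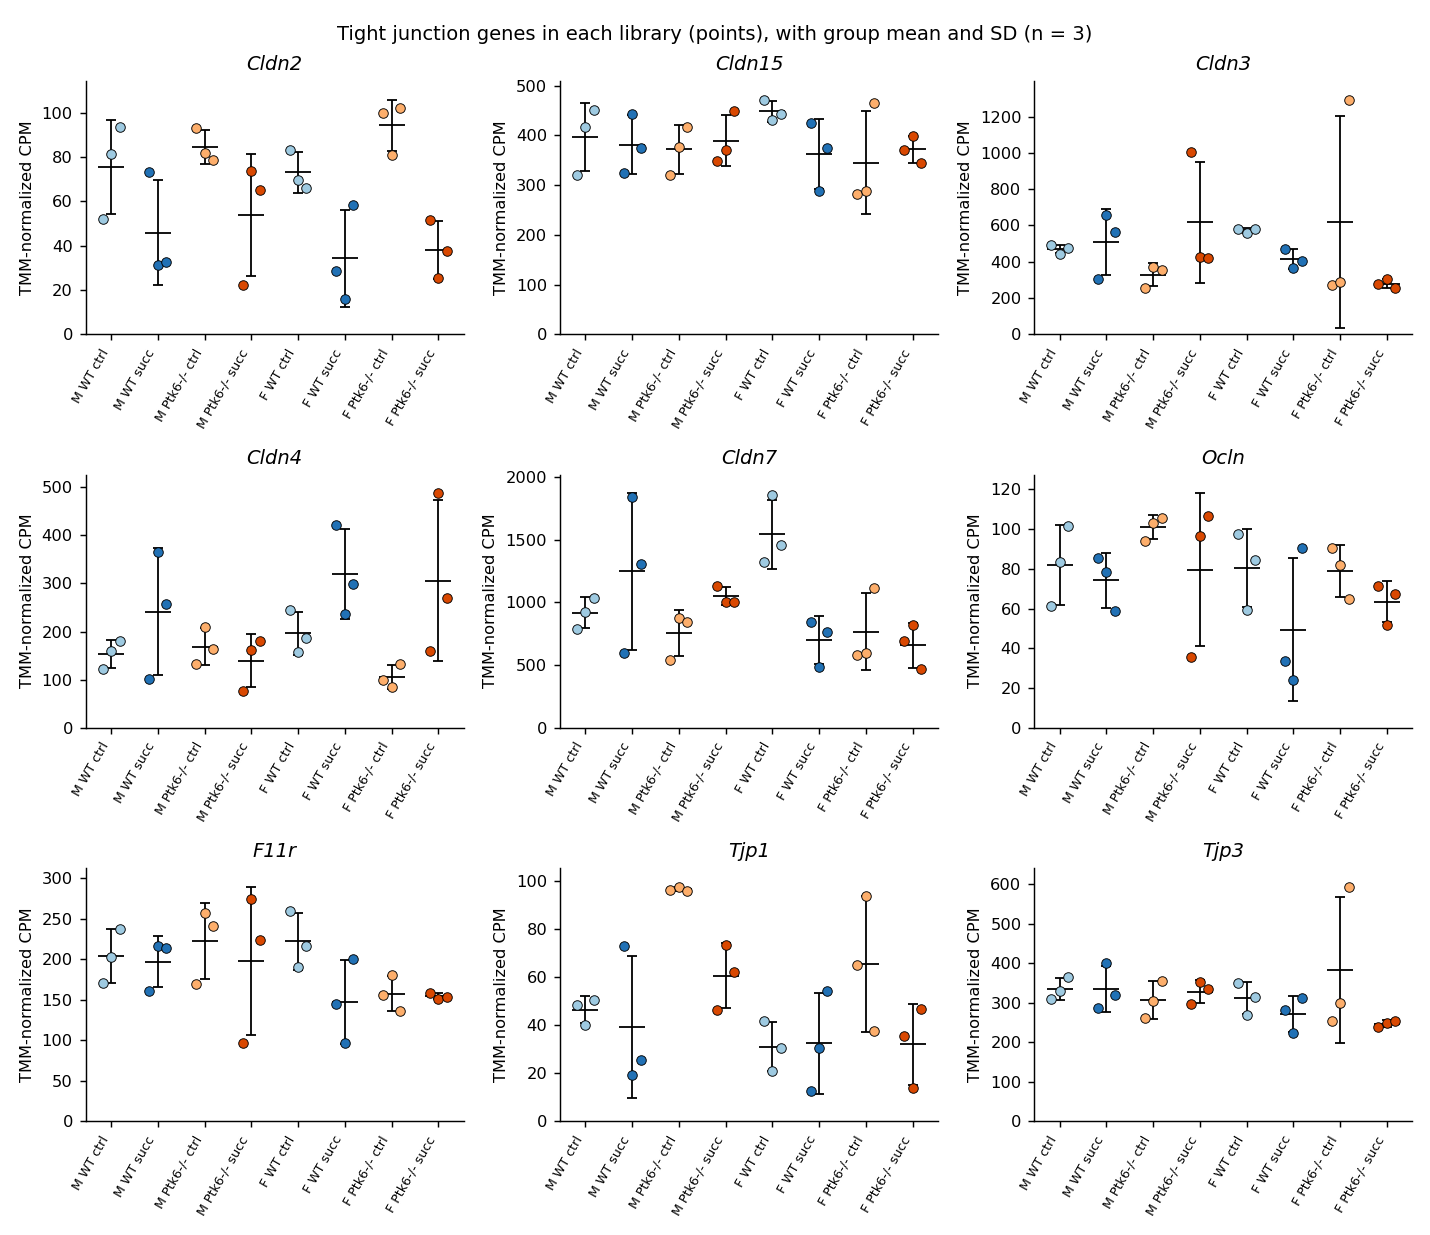
CPM after TMM normalization (vertical axes, starting at 0) of the 9 genes in each of the 24 libraries (points), for males (M) and females (F), WT and Ptk6-/-, control (ctrl) and succinate (succ); bars give the group mean and SD (n = 3). The 3 male Ptk6-/- controls lie at 95.6 to 97.4 CPM of Tjp1, above all other libraries, the nearest being a female Ptk6-/- control at 93.8.

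In control males, loss of Ptk6 went with a higher level of Tjp1. Tjp1 stood at 48.5, 39.9 and 50.4 CPM in the 3 male WT controls and at 96.2, 97.4 and 95.6 CPM in the 3 male Ptk6-/- controls. All 3 Ptk6-/- mice were higher than all 3 WT mice, and they differed little among themselves. The means were 46.2 ± 5.60 and 96.4 ± 0.927 CPM (SD, n = 3 each). The log2 fold change was 1.04 (standard error 0.13), and the adjusted p of edgeR's quasi-likelihood test over 19218 genes was 0.0200. Tjp1 was the 1 gene of the 9 called at an adjusted p under 0.05 and a change of at least 2-fold, where 0.739% of all genes tested were called, 0.515% as higher. Paneth cell markers moved with genotype in the same males, from a sum of 15724 to 17981 CPM (WT) to 5753 to 15166 CPM (Ptk6-/-). Tuft cell markers were at 50.4 to 53.6 CPM (WT) and 40.8 to 50.1 CPM (Ptk6-/-), ranges that nearly touch. The part of these cells was not tested. Since whole tissue was measured, fewer cells of a type and less RNA per cell cannot be told apart in this or any later comparison.

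The Tjp1 difference stood close to both thresholds, and the libraries of the groups differed in their length trend. The slope on gene length was −0.0535 to 0.0147 in male WT controls and 0.146 to 0.211 in male Ptk6-/- controls. With an offset for each library's length trend, Tjp1 had a log2 fold change of 0.82 (adjusted p = 0.0401, edgeR), below 2-fold. When 1 of the 6 libraries was left out its log2 fold change was 0.96 to 1.12, and the call was lost without WT replicate 2 (adjusted p = 0.0803) or 3 (0.0827), or without Ptk6-/- replicate 2 (0.0838) or 3 (0.118). With all 24 libraries in 1 fit the adjusted p was 0.930 (edgeR), with a log2 fold change of 1.06. In control females, Tjp1 stood at 41.5, 20.9 and 30.6 CPM in WT mice and at 65.1, 93.8 and 37.4 CPM in Ptk6-/- mice. The lowest Ptk6-/- mouse, replicate 3, fell within the WT range. The log2 fold change was 1.12 (standard error 0.39, unadjusted p = 0.0223, edgeR adjusted p = 0.393). That replicate had a length slope of −0.156, whereas the other two female Ptk6-/- controls had 0.114 and 0.190, and the WT females had −0.145 to −0.0167. Without it, Tjp1 had a log2 fold change of 1.41 and was called (adjusted p = 0.0284, edgeR), as were 9.65% of all genes. Over the 12 controls of both sexes, fitted with all 24 libraries, the log2 fold change was 1.07 (standard error 0.36, unadjusted p = 0.00772, edgeR adjusted p = 0.338), and none of the 9 genes was called, against 0.00461% of all genes.

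Across all 24 libraries, Tjp1 followed the length slope of its library with Pearson's r of 0.87 and Spearman's rho of 0.87 (permutation p = 1e-05 each, the smallest that 100000 resamples can give; adjusted over the 9 genes, p = 9e-05 each). Without the 2 libraries with the most extreme slopes r was 0.92, and within groups, after subtraction of group means, it was 0.91. Cldn3, the shortest of the 9, ran the other way (r = −0.71, rho = −0.73, permutation adjusted p = 0.00054 and 0.00045; −0.63 without the 2 most extreme libraries and −0.81 within groups). So did Cldn7 (r = −0.62, rho = −0.59, permutation adjusted p = 0.00297 and 0.00769; −0.58 and −0.77). Ocln, the second longest of the 9, had r of 0.61 (rho = 0.68, permutation adjusted p = 0.00297 and 0.00105; 0.54 and 0.62). Cldn2 had r of 0.55 (rho = 0.52, permutation adjusted p = 0.0097 and 0.0188; 0.46 and 0.60) and Cldn15 −0.47 (rho = −0.42, permutation adjusted p = 0.0323 and 0.0604; −0.50 and −0.47). F11r, Tjp3 and Cldn4 had permutation adjusted p of 0.0921 to 0.349 for r. The slope is itself fitted on the lengths of the genes, so that long genes tend to rise with it and short genes to fall. The directions for Tjp1 and Cldn3 thus follow in part from how the slope is made. No share of all genes with such an r is given beside these p-values. What the slope itself reflects was not tested.

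**Figure D2:**
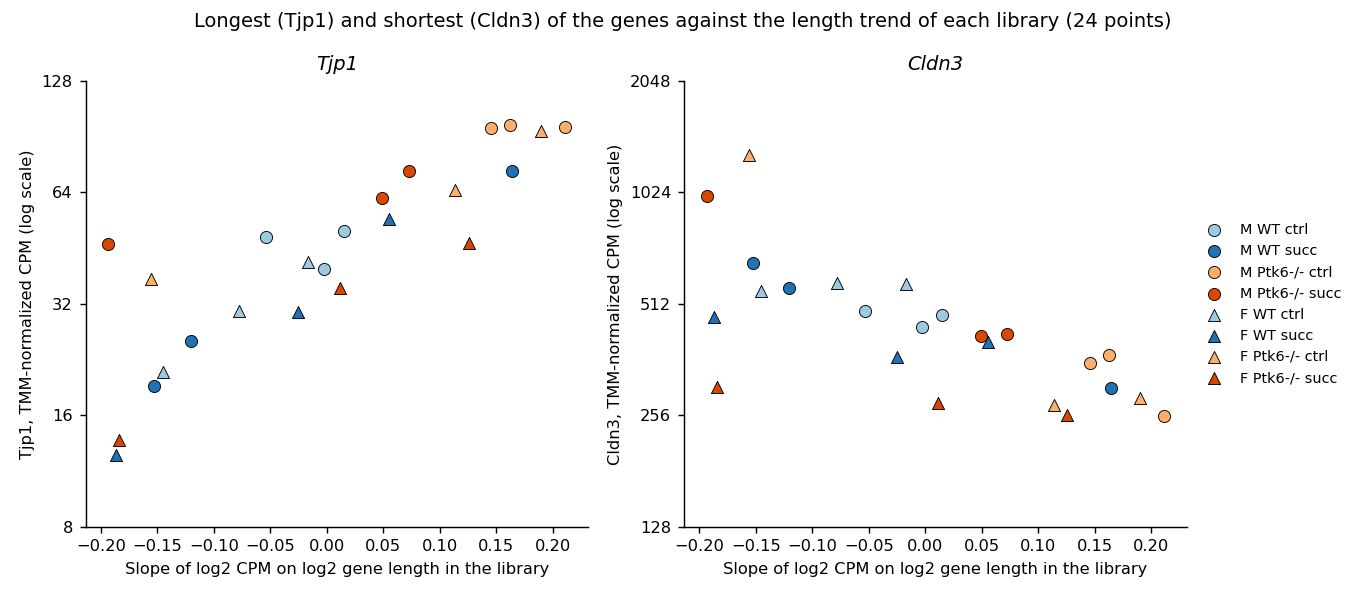
Level of Tjp1 (left) and Cldn3 (right) in CPM on log axes against the length slope of the same library, for 24 libraries (circles, males; triangles, females). Tjp1 is higher and Cldn3 lower in libraries with a steeper slope (r = 0.87 and −0.71), and the 3 male Ptk6-/- controls sit at slopes of 0.146 to 0.211.

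Among the claudins, the sealing claudin Cldn3 had lower values in male Ptk6-/- controls, short of the threshold. In control males, Cldn3 was at 491, 443 and 477 CPM in WT mice and at 254, 372 and 355 CPM in Ptk6-/- mice. The groups did not overlap. The log2 fold change was −0.55 (standard error 0.18, unadjusted p = 0.0139, edgeR adjusted p = 0.102), and with the length offset and other alternatives it lay between −0.56 and −0.11. Of the 9 genes, Tjp1 and Cldn3 were the 2 without overlap between control males of the genotypes, and such genes were 31.4% of all tested. The other 7 genes had log2 fold changes of −0.30 to 0.29 in control males, and the median over the 9 was 0.11, against 0.02 over all genes.

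In control females, no gene of the 9 was called, where 0.0158% of all genes were, and 3 had an unadjusted p under 0.05, against 11.1% of all genes. Besides Tjp1 these were Cldn4 and Cldn7. Cldn4 was at 246, 158 and 186 CPM in female WT controls and at 98.4, 84.8 and 132 CPM in female Ptk6-/- controls (log2 fold change −0.87, standard error 0.27, unadjusted p = 0.0136, edgeR adjusted p = 0.372). Cldn7 was at 1321, 1854 and 1458 CPM in WT and at 578, 596 and 1118 CPM in Ptk6-/- females (log2 fold change −0.99, standard error 0.36, unadjusted p = 0.0250, edgeR adjusted p = 0.397). For both, every Ptk6-/- female lay below every WT female. The same was true of F11r, at 190 to 260 CPM in WT and 136 to 180 CPM in Ptk6-/- females (log2 fold change −0.46), so that 3 of the 9 genes did not overlap, all lower in Ptk6-/- mice, where 18.9% of all genes tested did not overlap and 10.3% were lower. Summed markers of villus enterocytes were at 46251 to 52263 CPM in female WT controls and at 21901, 28438 and 56131 CPM in female Ptk6-/- controls. Replicate 3 of the latter, at 56131 CPM, lay above every WT female. Pan-epithelial markers summed to 15473 to 17129 CPM in WT and 9715 to 14919 CPM in Ptk6-/- females, without overlap. Lymphoid markers ran the other way without overlap, at 36.2 to 54.3 CPM in WT and 74.5 to 101 CPM in Ptk6-/- females. The part of these markers in the differences was not tested.

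Replicate 3 of the female Ptk6-/- controls stood apart for several of the 9 genes. It held 1293 CPM of Cldn3, against 273 and 286 CPM in the other two mice of its group and 556 to 583 CPM in WT females. The log2 fold change of Cldn3 between genotypes was 0.13 in control females (standard error 0.59), and −0.98 without that mouse (edgeR adjusted p = 0.0275). It also held 594 CPM of Tjp3, against 253 and 300. Its Cldn7 level of 1118 CPM was also the highest of the group. Without that mouse, the log2 fold changes in control females were −1.04 for Cldn4 (adjusted p = 0.0322) and −1.34 for Cldn7 (adjusted p = 0.0275), and both were called (edgeR). This is the fit in which Tjp1 was also called, and the share of all genes called in it is given there. With that mouse kept, 0.0158% of all genes were called. In control males the log2 fold change of Cldn4 was 0.12 (standard error 0.19). Tested over the 12 controls, the interaction (female minus male genotype effect) was −0.98 for Cldn4 (standard error 0.34, unadjusted p = 0.0128, edgeR adjusted p = 0.999), with 4.64% of all genes at an unadjusted p under 0.05. No gene of the 9 was called for this interaction, and 0% of all 20428 genes were.

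After succinate, no difference between genotypes in the 9 genes passed the test. No gene of the 9 was called in males or in females, as with all other genes (0% called in each), and none had an unadjusted p under 0.05, where 2.72% of all genes did in males and 4.52% in females. The smallest edgeR adjusted p of any gene was 0.1315 in males and 0.139 in females. Ptk6 itself, the deleted gene, was therefore not called either, and the lack of a call does not show that the 9 genes were unchanged. In treated males none of the 9 was without overlap between genotypes, and 8.66% of all genes were. The largest difference in males was that of Cldn4, at 101, 365 and 258 CPM in WT and 76.2, 161 and 181 CPM in Ptk6-/- mice (log2 fold change −0.76, standard error 0.51, unadjusted p = 0.173, edgeR adjusted p = 1.00). When 1 library was left out, that of Cldn4 was −1.12 to −0.36. In females the largest difference was that of Cldn3, at 473, 367 and 404 CPM in WT and 277, 305 and 257 CPM in Ptk6-/- mice (log2 fold change −0.57, standard error 0.30, unadjusted p = 0.0996, edgeR adjusted p = 0.931). Cldn3 was the only one of the 9 whose succinate-treated females did not overlap between genotypes, where 10.8% of all genes were without overlap and 4.47% were lower. Villus enterocyte markers of the same mice did not overlap either, at 26898 to 36300 CPM in WT and 17441 to 21046 CPM in Ptk6-/- females. Nor did crypt and cycling cell markers, at 283 to 559 and 766 to 814 CPM. The part of these markers in the Cldn3 difference was not tested. Tjp1 in treated females was at 12.5 to 54.1 CPM in WT and 13.7 to 46.7 CPM in Ptk6-/- mice (log2 fold change −0.0045, standard error 0.60), and in treated males at 19.2 to 72.9 and 46.4 to 73.3 CPM (0.64, standard error 0.51). When 1 library was left out, the log2 fold change was −0.41 to 0.57 in females and 0.31 to 1.49 in males. Whether the genotype effect on Tjp1 differed with succinate was tested as an interaction, which was −0.39 in males (standard error 0.55) and −1.11 in females (standard error 0.79, unadjusted p = 0.186, edgeR adjusted p = 0.820). No gene of the 9 was called for either interaction (0% of all genes in each).

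**Figure D3:**
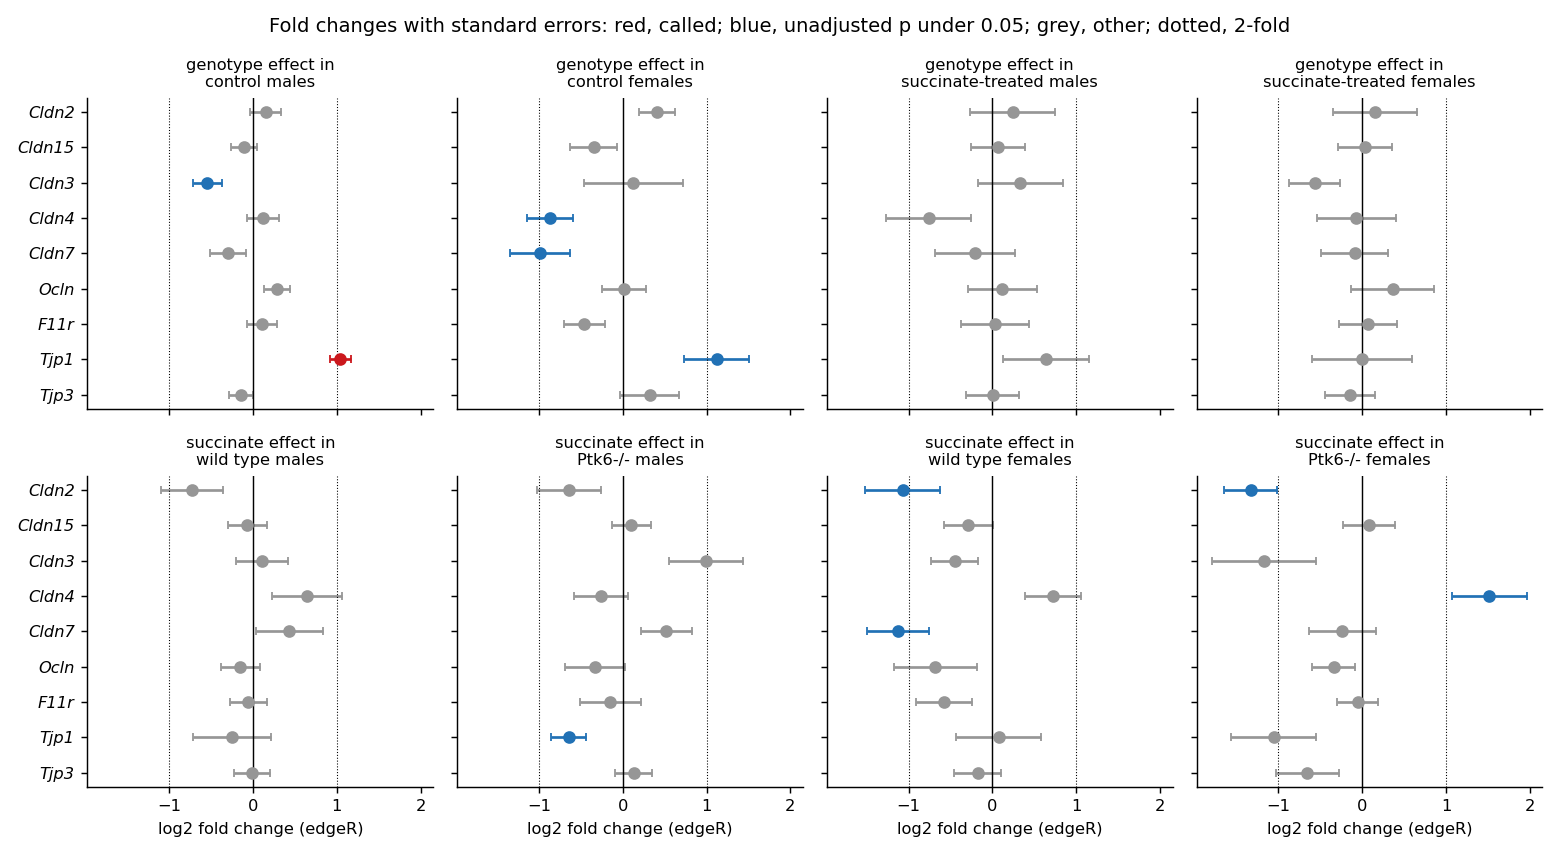
Log2 fold change (horizontal axes) with its standard error for the 9 genes in the 8 comparisons of 2 groups (n = 3 mice each; edgeR), Ptk6-/- over WT in the upper row and succinate over control in the lower row. Red marks the 1 call, Tjp1 in control males, blue an unadjusted p under 0.05, and the dotted lines a 2-fold change.

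Succinate went with a lower level of the pore claudin Cldn2. In female Ptk6-/- mice Cldn2 was at 99.9, 81.0 and 102 CPM in controls and at 51.6, 25.4 and 37.7 CPM after succinate. In female WT mice it was at 83.4, 69.5 and 66.2 CPM in controls and at 28.4, 15.96 and 58.4 CPM after succinate. In both genotypes every treated female lay below every control. The log2 fold changes were −1.33 in Ptk6-/- females (standard error 0.31, unadjusted p = 0.00301, edgeR adjusted p = 0.286) and −1.07 in WT females (standard error 0.45, unadjusted p = 0.0459, edgeR adjusted p = 0.638). Without WT replicate 3 of the treated females, at 58.4 CPM, the latter was −1.67 and was called (edgeR adjusted p = 0.0417), as were 3.23% of all genes. Without replicate 2, the lowest of them and the library with heart muscle markers, it was −0.72 (edgeR adjusted p = 1.00).

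In males the log2 fold changes of Cldn2 were also below 0. Male Ptk6-/- mice were at 93.2, 81.9 and 78.5 CPM in controls and at 22.2, 73.7 and 65.0 CPM after succinate (log2 fold change −0.64, standard error 0.38, unadjusted p = 0.133, edgeR adjusted p = 0.620), again without overlap. The lowest of them was the library of 8080321 counts, and without it the log2 fold change was −0.31. Male WT mice were at 52.2, 81.4 and 93.5 CPM in controls and at 73.3, 31.5 and 32.7 CPM after succinate (log2 fold change −0.73, standard error 0.37, unadjusted p = 0.0853, edgeR adjusted p = 0.947). None of the 9 genes was without overlap here (8.77% of all genes). Replicate 1 of the treated mice lay within the range of the controls, and without it the log2 fold change was −1.27 (adjusted p = 0.0153, edgeR), and 5.8% of all genes were called. Without replicate 2, the lowest of the treated mice, it was −0.51 (edgeR adjusted p = 1.00).

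Over all 24 mice, with sex and genotype given equal weight, Cldn2 had a log2 fold change with succinate of −0.94 (standard error 0.22, edgeR adjusted p = 0.0396). It was the 1 gene of the 9 with an adjusted p under 0.05, as were 1.03% of 21694 genes (0.23% lower), but its change was short of 2-fold, so that none of the 9 was called, against 0.728% of all genes. The adjusted p was above 0.05 when most single libraries were left out (0.00358 to 0.0970, under 0.05 in 5 of 24 cases), and without the 3 libraries that stand apart it was 0.0509, with a log2 fold change of −0.81. The sign was negative in each of these. The smallest effect left by a single library was −0.85, without replicate 1 of the treated male Ptk6-/- mice.

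In female Ptk6-/- mice, Cldn2 and Cldn4 were the 2 of the 9 genes without overlap between treatments, as were 21.2% of all genes. Cldn4 was the 1 gene of the 9 with a positive log2 fold change with succinate over all mice. It was 0.65 (standard error 0.21, unadjusted p = 0.00610, edgeR adjusted p = 0.160). The other 8 lay below 0, as did 50.3% of all genes, with a median over the 9 of −0.18 against −0.0025 over all genes, and Cldn15 and Cldn3 were above 0 under some alternatives. Female Ptk6-/- mice were at 98.4, 84.8 and 132 CPM in controls and at 160, 487 and 270 CPM after succinate, without overlap (log2 fold change 1.52, standard error 0.44, unadjusted p = 0.00965, edgeR adjusted p = 0.378). Female WT mice were at 246, 158 and 186 CPM in controls and at 422, 237 and 298 CPM after succinate, where the lowest treated mouse lay under the highest control (0.72, standard error 0.33). Male WT mice were at 122, 159 and 180 CPM and, after succinate, at 101, 365 and 258 CPM (0.64, standard error 0.42). Male Ptk6-/- mice were at 133, 209 and 164 CPM and, after succinate, at 76.2, 161 and 181 CPM (−0.26, standard error 0.33). When 1 library was left out, the log2 fold change was 1.01 to 1.83 in Ptk6-/- females and 0.46 to 0.92 in WT females. In males it was 0.22 to 0.98 (WT, lowest edgeR adjusted p = 0.0207) and −0.46 to −0.0065 (Ptk6-/-). The difference between male genotypes in this effect was −0.90 (standard error 0.58, unadjusted p = 0.1504, edgeR adjusted p = 0.993) and that between female genotypes 0.81 (standard error 0.55, unadjusted p = 0.166, edgeR adjusted p = 0.812).

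Because Cldn2 and Cldn4 lay in opposite directions, their ratio within a library separated the treated females from the controls. The ratio of Cldn4 to Cldn2 FPKM was 5.40, 4.16 and 5.15 in female WT controls and 27.2, 27.2 and 9.35 after succinate. It was 1.80, 1.92 and 2.38 in female Ptk6-/- controls and 5.68, 35.1 and 13.1 after succinate. In females of both genotypes every treated mouse had a higher ratio than every control. In male WT mice it was 4.28, 3.59 and 3.53 in controls and 2.53, 21.3 and 14.4 after succinate, and in male Ptk6-/- mice 2.61, 4.68 and 3.83 in controls and 6.31, 3.996 and 5.10 after succinate. Both male genotypes overlapped between treatments. Cldn2 and Cldn4 differ in length, and a ratio within a library does not remove its length slope. The treated WT males had slopes of 0.164, −0.153 and −0.120 in the order of their ratios, and the treated Ptk6-/- female with the ratio of 35.1 had −0.184, whereas the other two treated mice of that group had 0.0115 and 0.125. In the order of their ratios, the treated WT females had slopes of −0.187, −0.0255 and 0.0553. The treated male Ptk6-/- mice had −0.193, 0.0726 and 0.0491, where the steepest negative slope of all libraries stood beside 6.31, the highest ratio of its group. Among controls, a slope of −0.156 in a female Ptk6-/- mouse stood beside 2.38, also the highest ratio of its group. A slope of −0.145 in a female WT control stood beside 4.16, the lowest of its group. The part of the slope in the ratio was not tested. This ratio was formed after the values were seen and is given without a test.

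**Figure D4:**
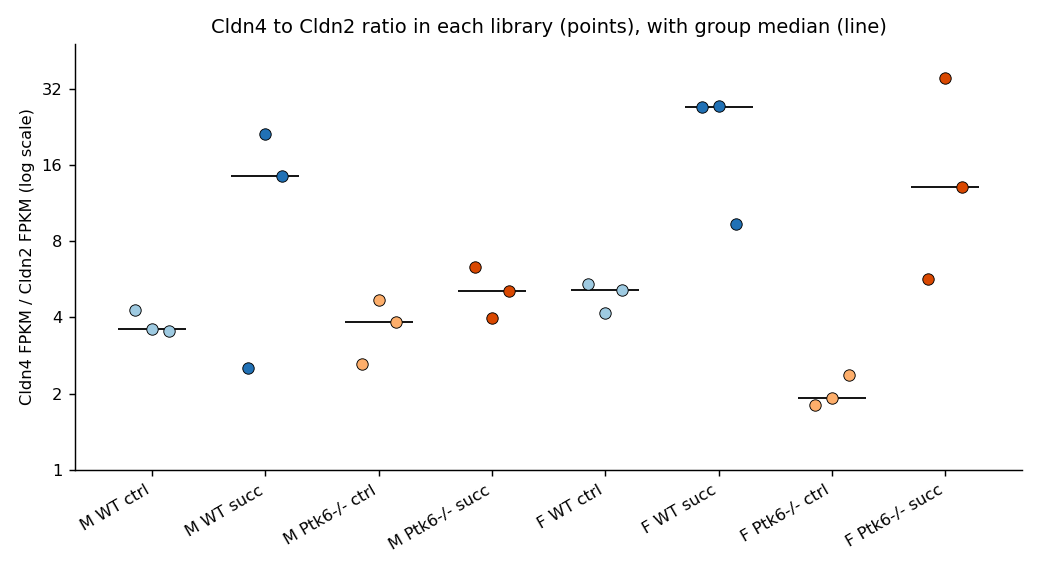
Ratio of Cldn4 to Cldn2 FPKM (log axis) within each of the 24 libraries (points), by group, with the group median (line). Treated females of either genotype lie above all controls of their genotype (5.68 to 35.1 against 1.80 to 5.40 over both), whereas treated and control males overlap.

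Markers of other cells and regions moved with succinate in females, and some in males. The 10 tuft cell markers summed to 38.9 to 63.8 CPM in female WT controls and 122 to 356 CPM after succinate, and to 38.2 to 52.3 and 181 to 396 CPM in female Ptk6-/- mice. In males the sums were 50.4 to 53.6 and 81.5 to 112 CPM (WT) and 40.8 to 50.1 and 36.2 to 79.6 CPM (Ptk6-/-). The 4 distal intestine markers summed to 1678 to 2990 CPM in female WT controls and 346 to 1532 CPM after succinate, and to 792 to 2436 and 311 to 619 CPM in female Ptk6-/- mice. Villus enterocyte markers summed to 46251 to 52263 and 26898 to 36300 CPM in WT females, and to 21901 to 56131 and 17441 to 21046 CPM in Ptk6-/- females. Pan-epithelial markers summed to 15473 to 17129 and 8231 to 13202 CPM in WT females, and crypt and cycling cell markers to 322 to 727 and 766 to 814 CPM in Ptk6-/- females, in both cases without overlap. In male Ptk6-/- mice, endothelial markers summed to 104 to 121 CPM in controls and 74.8 to 99.1 CPM after succinate, and smooth muscle markers to 1719 to 2654 and 2666 to 2854 CPM. In male WT mice, lymphoid markers summed to 51.8 to 105 and 122 to 133 CPM. The part of these cells and regions in the values of Cldn2, Cldn4 and the other claudins was not tested.

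Cldn7 and Cldn3 gave no single direction with succinate. In female WT mice Cldn7 was at 1321, 1854 and 1458 CPM in controls and at 844, 482 and 768 CPM after succinate, without overlap (log2 fold change −1.13, standard error 0.37, unadjusted p = 0.0163, edgeR adjusted p = 0.617). Cldn2, Cldn15, Cldn3 and Cldn7 were all lower without overlap in treated WT females, 4 of the 9 genes, where 13.3% of all genes did not overlap and 7.31% were lower. Replicate 2 of these treated mice, the library with heart muscle markers, had the lowest level of each of the 4. The gene for 18S ribosomal RNA took 0.161% to 0.215% of the counts in female WT controls and 0.981% to 3.80% after succinate, without overlap. Its part in these differences was not tested. In male Ptk6-/- mice Cldn7 was at 542 to 875 CPM in controls and at 1006 to 1130 CPM after succinate (0.52, standard error 0.30). On the FPKM scale the sign of Cldn7 was turned (−0.19 with a pseudocount of 1 or 0.1), where the median of all genes was −0.45 and −0.77. Cldn3 was at 254 to 372 and 419 to 1004 CPM (0.99, standard error 0.44, unadjusted p = 0.0580, edgeR adjusted p = 0.6003). Both lay higher in CPM without overlap, and Cldn2 and Tjp1 lower without overlap, so that 4 of the 9 did not overlap in male Ptk6-/- mice, with 23% of all genes. The 1004 CPM of Cldn3 came from the library of 8080321 counts, and without it the log2 fold change of Cldn3 was 0.35. Tjp1 in male Ptk6-/- mice was at 95.6 to 97.4 CPM in controls and at 46.4, 73.3 and 61.8 CPM after succinate (−0.65, standard error 0.21, unadjusted p = 0.0151, edgeR adjusted p = 0.6003). The length slope moved with treatment in the same males, from 0.146 to 0.211 in controls to −0.193 to 0.0726 after succinate, and with the length offset the log2 fold changes were 0.44 for Cldn3 and −0.39 for Tjp1. Villus enterocyte markers summed to 21156 to 32972 CPM in these controls and 33021 to 54116 CPM after succinate, and pan-epithelial markers to 9488 to 13180 and 13551 to 16575 CPM, both without overlap. Their part in these differences was not tested. No gene of the 9 was called with succinate in any of the 4 comparisons of 2 groups, where 0%, 0% and 0% of all genes were called in WT males, Ptk6-/- males and WT females, and 0.0879% in Ptk6-/- females.

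Cldn15, the other pore claudin, was the steadiest of the 9. It lay between 283 and 471 CPM over all 24 libraries (median 376), and its log2 fold changes ran from −0.35 to 0.10 over the 8 comparisons of 2 groups, none with an unadjusted p under 0.05. With succinate over all mice it was −0.05 (standard error 0.12). Tjp3 lay between 222 and 594 CPM (median 308), F11r between 96.2 and 274 CPM (median 185) and Ocln between 24.1 and 107 CPM (median 82.5), and none of these 3 had an unadjusted p under 0.05 in any comparison. Ocln was at 33.5, 24.1 and 90.7 CPM in treated WT females, where 2 mice lay below every other library, the library of 8080321 counts at 35.4 CPM included. Between the sexes over all mice, 8 of the 9 genes had log2 fold changes below 0 (female over male) and no gene was called, against 0.36% of all genes. Of all genes, 46.9% lay below 0, and Cldn2, Cldn15, Cldn3, Cldn7 and Tjp3 were above 0 and Cldn4 below 0 under at least 1 alternative. The largest was that of Tjp1, −0.58 (standard error 0.25, unadjusted p = 0.0322, edgeR adjusted p = 0.284).

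As shares of the summed FPKM of the 5 claudins, a measure within each library, Cldn7 held 34.0% to 49.6%, Cldn3 24.7% to 37.9%, Cldn15 13.3% to 19.4%, Cldn4 5.84% to 17.9% and Cldn2 0.971% to 3.00% on average in the 8 groups. In WT females, Cldn4 held 6.88% ± 1.904 (SD, n = 3) in controls and 16.7% ± 1.71 (SD, n = 3) after succinate, and Cldn7 held 49.6% ± 5.73 and 34.0% ± 3.15 (SD, n = 3 each). The libraries did not overlap for either gene. A share also rises when the other claudins fall, and in CPM Cldn4 overlapped between these groups (158 to 246 in controls, 237 to 422 after succinate). In Ptk6-/- females Cldn4 held 3.79% to 7.42% in controls and 10.3% to 23.8% after succinate, also without overlap. In males its share was 6.53% to 10.9% in controls and 2.63% to 10.7% after succinate. Such shares have no counterpart over all genes, and the part of the length slope in them was not tested.

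**Figure D5:**
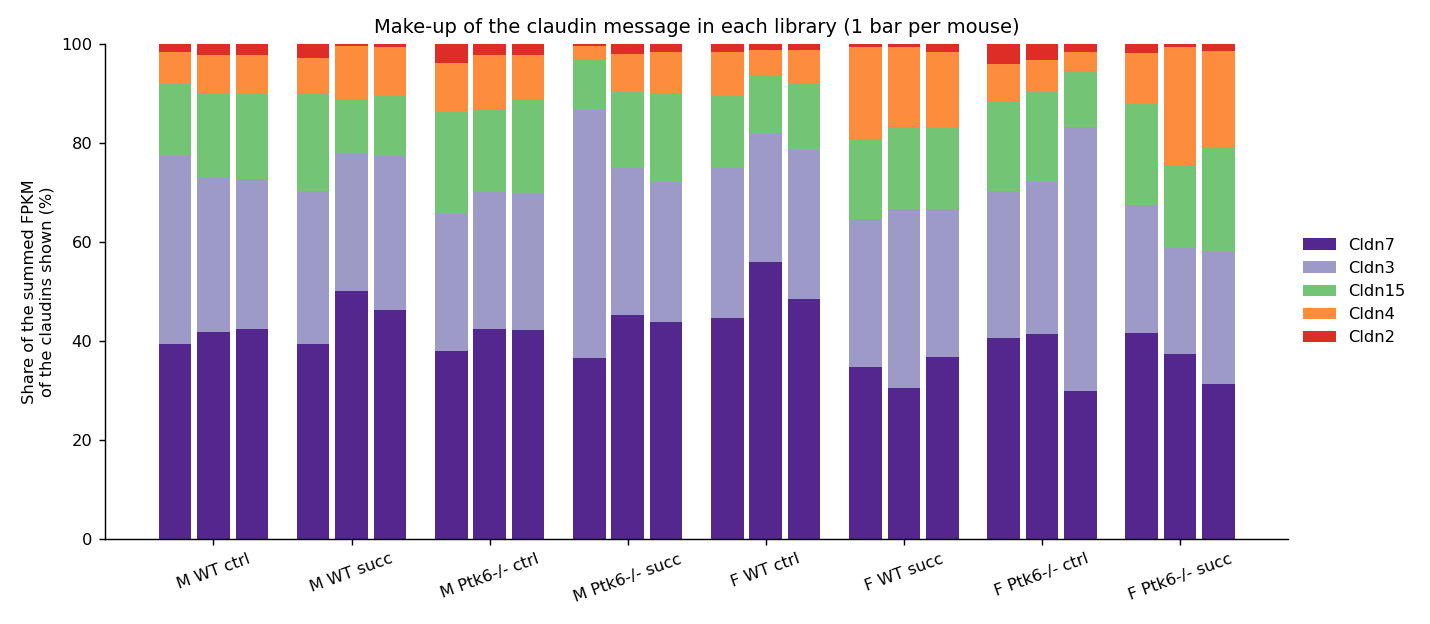
Share (%) of each of the 5 claudins in their summed FPKM, 1 stacked bar per mouse in the 8 groups. The Cldn4 segment takes 10.3% to 23.8% in the 6 treated females and 3.79% to 8.89% in the 6 control females.

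The other claudins contributed little. Of 18 further claudin genes listed, 16 had counts in some library. Cldn23 (1.61 to 19.7 FPKM, median 12.6), Cldn12 (median 3.13) and Cldn5 (median 2.50), an endothelial claudin, were the highest by the median, whereas Cldn6, Cldn13, Cldn14, Cldn18, Cldn19 and Cldn22 had at most 3 counts in 16 to 24 of the 24 libraries. None was called in any comparison by the main test. With succinate over all mice, Cldn5 had a log2 fold change of 1.16 (standard error 0.29, unadjusted p = 0.000602, edgeR adjusted p = 0.0527) and was called with DESeq2's size factors. Endothelial markers summed to 74.8 to 121 CPM in all libraries but replicate 2 of the treated WT females (373 CPM), the library with heart muscle markers, and their part was not tested. Cldn8 had −1.07 (edgeR adjusted p = 0.273).

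Among the other junction genes in control males, most scaffolds lay on the side of Tjp1, but not Tjp3 (−0.14, standard error 0.15). All 13 further scaffold genes had a log2 fold change above 0, also with DESeq2's size factors and with the length offset, with a median of 0.59 (0.36 with the length offset, 0.02 over all genes). Of them, 3 had an adjusted p under 0.05, none with the length offset, and 1 was called, Amotl1, an angiomotin relative, at 6.3, 6.1 and 5.3 CPM in WT and 13.4, 11.1 and 11.4 CPM in Ptk6-/- mice (log2 fold change 1.01, standard error 0.17, edgeR adjusted p = 0.0310). Afdn (afadin, 0.64, edgeR adjusted p = 0.0311) and Magi3 (0.69, edgeR adjusted p = 0.0355) were the others. Over all 66 further tight junction genes, 54 were tested, 40 lay above 0, as did 51.3% of all genes, and 5 had an adjusted p under 0.05, all higher, where 2.36% of all genes did. Prkci and Arhgef11 were the remaining 2. In the neighbouring junctions, Vcl (vinculin, 0.91) of 10 adherens junction genes and Dsg2 (desmoglein, 0.93) of 8 desmosomal genes passed in the same way. None of these genes passed with the length offset. Across the 81 junction genes tested in control males, the log2 fold change had a Pearson correlation with log2 length of 0.52, against 0.33 over 19075 genes, as a description over genes, which are not independent. In control females no junction list had a gene with an adjusted p under 0.05, and 12 of 13 scaffolds lay above 0 (9 of 13 with the length offset), as did 53% of all genes without that offset. With succinate over all mice, 10 of 13 scaffolds lay below 0, as did 50.3% of all genes. The 1 further junction gene with an adjusted p under 0.05, where 1.03% of all genes had one, was the desmosomal Evpl (envoplakin, 0.62, standard error 0.13, edgeR adjusted p = 0.0247).

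The genes whose levels were most like those of the 9 over the 24 libraries differed from gene to gene. By Pearson correlation of log2 CPM, a description over libraries that share length trend and treatment, Tjp1 was most like Dsg2 (0.97) and Kansl1 (0.96), Cldn7 most like Ube2l6 (0.97) and the histocompatibility gene H2-K1 (0.95), and Ocln most like Fbxo34 and Marchf8 (0.96 each). F11r was most like Insig2 and Icmt (0.95 each), Cldn3 most like Nosip and Ppp1r14d (0.94 each), and Cldn2 most like Ugt2b34 (0.92). Cldn4 was most like the glycolytic enzymes Pgk1 (0.91) and Ldha (0.90), Cldn15 most like Dera (0.90) and Tmem98 (0.85), and Tjp3 most like Rara (0.89) and Nags (0.87).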

How the data were processed

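Poly(A) RNA of the distal jejunum of 24 mice was sequenced with strand-specific libraries. Per the study's methods, the authors trimmed reads with Cutadapt, aligned them with HISAT2 and assembled them with StringTie. The submitters' processing notes name GRCm39, FastQC and StringTie. The deposited table of gene counts held raw counts, and the deposited FPKM values were scaled by the authors to gene length and library size. FPKM was used to compare levels between genes or within a library, and between groups only in the alternatives named here.

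Counts were scaled by TMM, filtered (at least 10 counts in at least 3 libraries) and tested with edgeR 4.0.16 (quasi-likelihood, two-sided, Benjamini-Hochberg adjustment over all genes tested). A gene was called at an adjusted p under 0.05 and a change of at least 2-fold. The comparisons of 2 groups used their 6 libraries, the pooled effects all 24 and the interactions 12. Unless another tool is named, p-values are of this test, and they measure the spread between mice. Alternatives used DESeq2 1.42.0, limma 3.58.1 on log2(FPKM + 1) or log2(FPKM + 0.1), voom sample weights, other filters and scaling, a gene length offset, a replicate block, and leaving out libraries; scripts were tested on simulated counts. Depth was 8080321 to 52824743 counts per library.

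The 9 genes were fixed by symbol, and the rule for naming others took junction genes called in a comparison and the 2 genes most correlated with each of the 9 (among genes with at least 10 counts in every library), 1 of which is not reported here. The further claudins and the junction genes with an adjusted p under 0.05 but short of 2-fold were picked out with their values known. The members and lists were chosen with earlier results of these data known. Promoters came from RefSeq (GRCm38.p6), since positions in the deposited table are on GRCm39. The 24 repeated count columns in the FPKM table were not used.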

Additional observations from a re-analysis of the deposited data

Results flagged for a closer look

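The difference between genotypes in Cldn4 was tested for a difference between the sexes in controls. The interaction of sex and genotype was −0.98 on the log2 scale (standard error 0.34, unadjusted p = 0.0128, edgeR adjusted p = 0.999). It was flagged as the 1 gene of the 9 with an unadjusted p under 0.05 for this interaction, where 4.64% of all genes had one. Every female Ptk6-/- control (84.8 to 132 CPM) lay below every female WT control (158 to 246 CPM), whereas male Ptk6-/- controls (133 to 209 CPM) overlapped male WT controls (122 to 180 CPM). In control females 18.9% of all genes did not overlap, and 10.3% were lower in this way. The log2 fold change in males was 0.12 (standard error 0.19), and −0.06 to 0.26 when 1 library was left out, so that no direction is given for males. The interaction was negative in all 12 fits that left out 1 library and under the 14 other alternatives. These fits reuse most or all of the same libraries, so that their signs are not separate evidence.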

How the results depend on the processing

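Of 22 changes in single genes (called, at an unadjusted p under 0.05 or the largest in their comparison), none changed sign under any alternative. Smaller changes did, among them Cldn7 with succinate in Ptk6-/- males (−0.19 to 0.65), Cldn3 in control females (−0.98 to 0.48), Cldn4 in control males, Tjp1 between treated females and Cldn15 with succinate. Among 240 values that each left out 1 library, 227 stayed on their side of the threshold, and among 298 under other alternatives 283 did. The call of Tjp1 in control males was lost under several. The number of the 9 genes called there was 1, and 0 under the replicate block, the length offset, both together, limma on log2(FPKM + 1), on log2(FPKM + 0.1) and on log2(FPKM + 1) without a filter, and all 24 libraries in 1 fit. The FPKM scale shifted the median of all genes to 0.25 (pseudocount 1) and 0.40 (0.1). With voom sample weights, 3 genes were called in control females (10.7% of all genes), 2 in succinate-treated males (10.2%), 1 with succinate in WT males (8.11%) and 1 for genotype in all controls (7.44%). DESeq2 called 2 with succinate in Ptk6-/- females (Cldn2 −1.32, adjusted p = 0.0151, and Cldn4 1.53, adjusted p = 0.0424), and 2.24% of all genes. Without the 2-fold threshold, 1 gene passed with succinate in all mice. Leaving out 1 library gave 0 to 1 called genes in control males, 0 to 3 in control females (at most 9.65% of all genes), 0 to 2 with succinate in WT males (5.8%), 0 to 1 in WT females (3.23%) and 0 to 1 in all mice. For Cldn2 with succinate in all mice, adjusted p was 0.00012 to 0.423 over 13 other alternatives, and under 0.05 in 8. The cause of these changes was not tested.

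Replicate numbers were not used as pairs in the main test. Deviations of same-numbered libraries correlated between −0.60 and 0.46, with no values of differently numbered libraries set beside them. Whether libraries of 1 number share a batch was not tested. Under the replicate block, genes called in control males went from 142 to 5, Tjp1 had an adjusted p of 0.0539 (edgeR), and Cldn2 with succinate in all mice had 0.0519. The size of difference that 3 mice per group can show is not reported here.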
